A study of Drosophila melanogaster with 27 samples.

Results

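The Jonah and trypsin genes encode secreted serine proteases of the Drosophila midgut, and their RNA levels were followed through 9 genotypes of adult females. The genes were taken by name: symbols starting with Jon and a digit, symbols ending in Try, and Ser6, Ser8 and Ser12. This rule gave 30 genes in the gene table (16 Jonah genes, 11 trypsins and 3 Ser genes), of which 25 were listed for a probe set of the array (13 Jonah genes, 9 trypsins and 3 Ser genes). Each had 1 probe set, and 0 of the 25 probe sets listed a second gene, so none was shared. The series held 18769 probe sets after control probes were left out. Jon99Cii, Jon99Ciii, Jon99Fii, gammaTry and deltaTry had no listed probe set and were not analysed here.

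These proteases are made by the absorptive cells of the gut as inactive precursors, released into the lumen and activated there by cleavage, after which they cut dietary protein into peptides. Trypsins cut after lysine or arginine, and chymotrypsin-like enzymes cut after large hydrophobic residues. Trypsin genes lie side by side on the right arm of chromosome 2, and Jonah genes lie in small clusters that carry the cytological band in their names. Transcription of such genes in flies is known to follow diet, and the enzymes are abundant products of the feeding gut. Ser6, Ser8 and Ser12 encode serine proteases of the same fold, annotated by sequence.

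Total RNA of whole females was hybridised to Affymetrix Drosophila version 2 arrays, in 9 groups of 3 biological replicates with 10 females each, aged 0 to 24 h and kept at 25 °C. The study asked how expression answers to the loss or gain of chromosome segments and of chromosome 4. Wild type was the y1 w67c23 strain with 2 copies of chromosome 4. Df(3L)4470/+, Df(2L)ED4651/+ and Df(2L)J-H/+ females carried 1 deficiency over a chromosome from Oregon R, which was a parent of all 3 groups. Haplo 4th females had 1 copy of chromosome 4 and came from wild type crossed to the compound chromosome 4 stock C(4)RM sv(spa-pol)/0. Df(2L)J-H/+ haplo 4th females combined that deficiency with 1 copy of chromosome 4, and Dp(2;2)Cam3/+ triplo 4th females combined a duplication with 3 copies, both from crosses of the aneuploid stock to the compound stock. Females labelled pof-mutant came from a stock homozygous for PofD119 in y1 w67c23, and females labelled pof-mutant triplo 4th from a cross of that stock to Pof119/CyO with the compound chromosome 4. The product of Pof coats chromosome 4. Genotype, parental strain and cross cannot be told apart in comparisons with wild type, and all 8 of these share the same 3 wild type arrays.

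Values are log2 levels after a constant was added to each array (from -0.048 to 0.37), so that its mean over the probe sets with a wild type mean above 6 equalled that of the wild type arrays. After this centring the median of all probe sets lay 0.26 to 0.29 above wild type in the 3 deficiency groups and 0.16 above it for Df(2L)J-H/+ haplo 4th, while the median of probe sets above 6 lay within 0.05 of wild type in all groups. As deposited, the first median lay within 0.05 of wild type in every group, and the second lay 0.19 to 0.23 below it in the deficiency groups. The share of calls that were higher than wild type moved with this choice, from 85% to 51.6% in Df(2L)J-H/+, from 85% to 51.7% in Df(2L)ED4651/+, from 88% to 51.6% in Df(3L)4470/+ and from 75.5% to 54.1% for Df(2L)J-H/+ haplo 4th. The mean correlation of an array with the others of its group ran from 0.762 to 0.99 and was lowest for the array labelled pof-mutant replicate 2. Pof itself was not lower in the arrays labelled pof-mutant (9.70 ± 1.17, SD, n = 3) than in wild type (7.68 ± 0.239, SD, n = 3), with a log2 difference of 2.02 (limma adjusted p = 0.0223), and whether its probes lie in the deleted part is not given in the sources used here. Flight muscle markers were low on that array (median of 4 genes 9.66, against 12.65 to 13.04 in wild type), as on pof-mutant triplo 4th replicate 2 (10.52). Medians of 12 ovary and eggshell genes ran from 5.34 to 12.88 over the arrays.

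Most of the proteases were well detected. The mean over 27 arrays was above 6 for 22 of the 25 probe sets and lay below it for Jon66Cii (5.43), Ser8 (5.65) and Ser12 (5.67). The brightest were alphaTry (12.93), Jon65Aiv (12.39), betaTry (12.34) and Jon65Aiii (12.25), which stood at percentiles 98.5 to 99.1 of all probe sets. Levels of different probe sets are given for orientation only, since probes differ in response and the length of the RNA does not enter. Jon74E (11.12), Jon25Biii (11.20), Jon25Bi (10.85), Jon25Bii (10.82), epsilonTry (10.70) and thetaTry (10.10) were also above 10, and etaTry (7.13) and iotaTry (7.22) were the dimmest of the trypsins.

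The levels also varied between the pooled samples of one genotype. The SD within groups had a median of 0.571 over the 25 probe sets, against 0.313 over all probe sets with a mean above 6, and it ran from 0.233 for Ser12 to 1.62 for Jon99Fi. The range of the 9 group means had a median of 2.76, against 1.02 for probe sets above 6. Single arrays carried much of the spread within groups. Dp(2;2)Cam3/+ triplo 4th replicate 1 had the lowest value of its group for 24 of the 25 probe sets, Df(2L)J-H/+ replicate 1 and Df(2L)ED4651/+ replicate 2 for 22, the array labelled pof-mutant replicate 2 and Df(2L)J-H/+ haplo 4th replicate 1 for 21, and haplo 4th replicate 1 for 20. Of all probe sets above 6, these 6 arrays were the lowest of their group for 28.2% to 49.3%. The plot of deviations by array shows the same arrays below the others of their group.

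**Figure D1:**
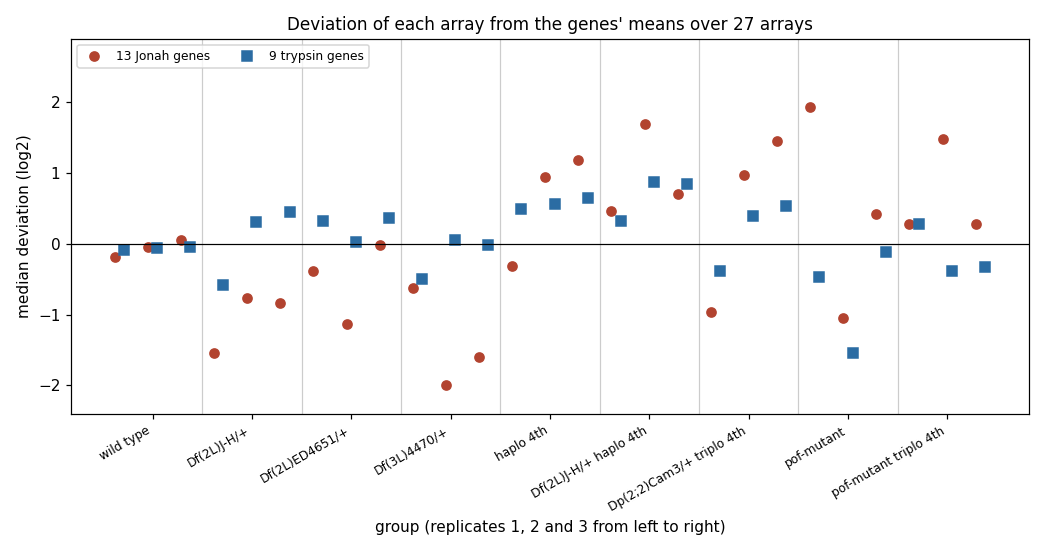
Median deviation (log2) of the 13 Jonah genes (circles) and the 9 trypsin genes (squares) on each of the 27 arrays from their own means over all arrays, ordered by group. The Jonah medians run from -1.99 on Df(3L)4470/+ replicate 2 to 1.93 on the array labelled pof-mutant replicate 1, and the trypsin medians from -1.55 to 0.88.

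Over all 9 groups, 19 of the 25 probe sets differed (moderated F test in limma, Benjamini-Hochberg adjusted p under 0.05), beside 64.2% of all probe sets and 65.6% of those above 6. The share of members was thus close to that of the whole array. The 19 were 8 of 13 Jonah genes, 8 of 9 trypsins and the 3 Ser genes. The lowest adjusted p belonged to Ser12 (1.55e-14), Ser6 (2.46e-07), etaTry and iotaTry (0.000101 each) and Jon44E (0.000116). Jon25Bi (adjusted p = 0.108), Jon66Ci (0.167), Jon66Cii (0.448), Jon99Ci (0.0904), Jon99Fi (0.292) and epsilonTry (0.0889) did not pass. Of these, Jon99Fi had group means 3.13 apart and epsilonTry 3.07 apart, with an SD within groups of 1.62 and 1.26.

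**Figure D2:**
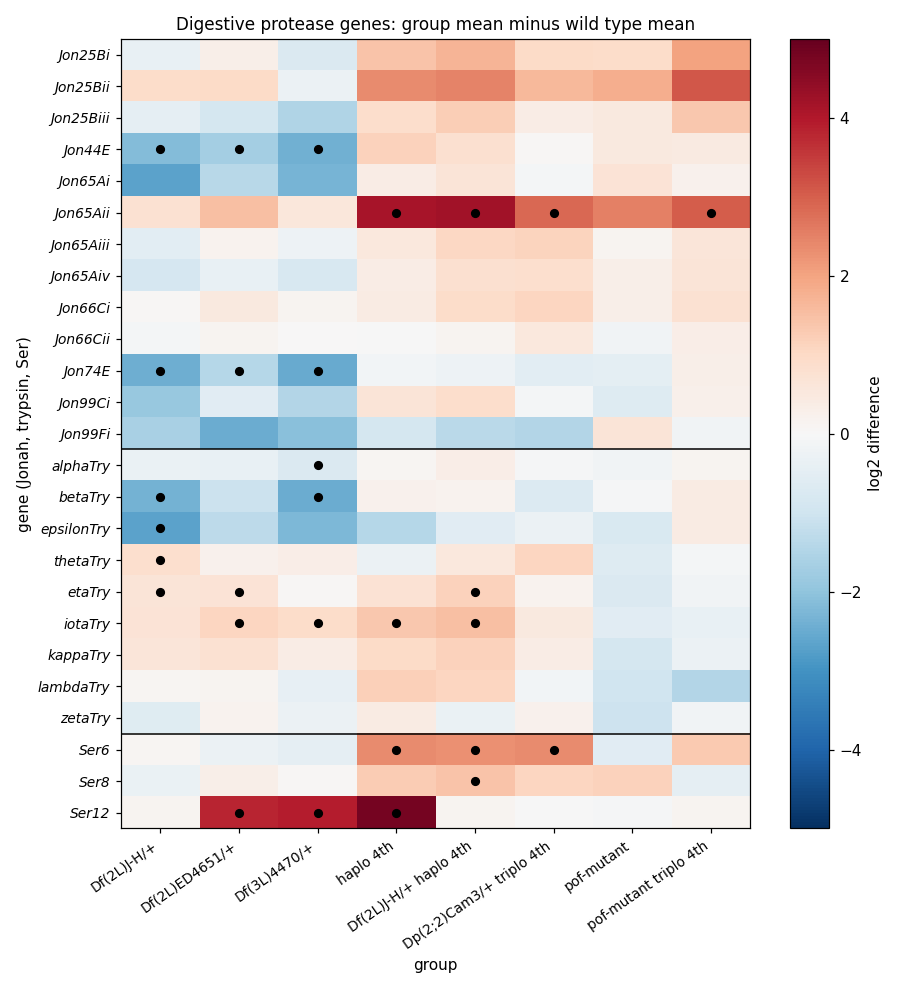
Log2 difference between the mean of each group and the mean of wild type (n = 3 arrays each) for the 25 genes, with red for higher, blue for lower and a dot where the limma adjusted p was under 0.05. Jon44E and Jon74E were called lower in the 3 deficiency groups, Jon65Aii was called higher in 4 groups, and Ser12 was called higher in 3 groups by 3.81 to 4.8.

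In the 3 deficiency groups, a set of Jonah genes and trypsins lay below wild type. Jon44E, a Jonah protease gene on chromosome 2R, measured 9.41, 9.52 and 9.73 in wild type. It measured 6.65, 7.53 and 7.96 in Df(2L)J-H/+, 8.21, 7.06 and 8.32 in Df(2L)ED4651/+, and the Df(3L)4470/+ arrays gave 7.58, 6.77 and 7.14. All 9 deficiency arrays lay below the 3 wild type arrays. The log2 differences were -2.18 ± 0.57 (SE, adjusted p = 0.00927), -1.69 ± 0.57 (adjusted p = 0.0257) and -2.39 ± 0.57 (adjusted p = 0.00515), which is 4.53-fold, 3.23-fold and 5.25-fold lower. In these bulk samples, fewer gut cells and less RNA per cell cannot be told apart.

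Jon74E, a Jonah gene of chromosome 3L, followed the same order. It measured 11.49, 12.44 and 11.91 in wild type, and in no deficiency array more than 10.73. Its log2 difference was -2.43 ± 0.49 in Df(2L)J-H/+ (SE, adjusted p = 0.00194), -2.52 ± 0.49 in Df(3L)4470/+ (adjusted p = 0.0015) and -1.43 ± 0.49 in Df(2L)ED4651/+ (adjusted p = 0.0272). In Df(2L)ED4651/+ both Jonah calls were lost in 3 of the 6 fits with 1 array left out: without Df(2L)ED4651/+ replicate 2 the adjusted p was 0.135 for Jon44E and 0.103 for Jon74E, without wild type replicate 2 it was 0.0549 and 0.0985, and without wild type replicate 3 it was 0.0753 and 0.0642. Quantile normalization also ended the Jon44E call there (-1.72, adjusted p = 0.0681).

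betaTry, one of the abundant trypsins, lay at 12.72, 13.17 and 13.08 in wild type and at 9.55, 11.04 and 11.25 in Df(2L)J-H/+. In Df(3L)4470/+ it lay at 11.37, 9.69 and 10.47. These arrays did not overlap wild type, and the log2 differences were -2.38 ± 0.53 (SE, adjusted p = 0.00351) and -2.48 ± 0.53 (adjusted p = 0.00265). In Df(2L)ED4651/+ betaTry measured 12.02, 11.54 and 12.16, also below wild type on each array, and did not pass (adjusted p = 0.0993). The neighbouring epsilonTry fell in Df(2L)J-H/+ (-2.66 ± 0.96, SE, adjusted p = 0.039) and alphaTry in Df(3L)4470/+ (-0.71 ± 0.27, SE, adjusted p = 0.044). Neither of these was called once any 1 of the 6 arrays was left out, with adjusted p up to 0.134 for epsilonTry without Df(2L)J-H/+ replicate 1 and 0.129 for alphaTry without wild type replicate 3.

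Counted over the family, Df(2L)J-H/+ had 4 members lower and 2 higher, Df(3L)4470/+ 4 lower and 2 higher, and Df(2L)ED4651/+ 2 lower and 3 higher. The share of all probe sets called was 33.6%, 35.9% and 40.7%, the share called lower was 5.03%, 4.31% and 6.08%, and the share called higher 28.6%, 31.6% and 34.6%. The 24% or 20% of members called in either direction was below that of the array on this scale, while the 16% called lower in Df(3L)4470/+ and Df(2L)J-H/+ was above it. These lower calls include epsilonTry in Df(2L)J-H/+ and alphaTry in Df(3L)4470/+, which were lost with any array left out. As deposited, 17.8%, 16.1% and 21.1% of all probe sets and 4, 5 and 4 of the 25 members were called, so that the shares were close. Probe sets called lower then numbered 1614 in Df(2L)J-H/+ and 1465 in Df(3L)4470/+, against 944 and 809 after centring. In both groups 4 members were lower as deposited, so the excess of lower members was smaller on that scale. The median log2 difference of the 25 members was -0.34 in Df(2L)J-H/+, -0.41 in Df(3L)4470/+ and 0.15 in Df(2L)ED4651/+. As deposited, with no constant added, these medians were -0.56, -0.65 and -0.09. Jon65Ai had the most negative difference of a Jonah gene in Df(2L)J-H/+, at 5.25, 5.54 and 6.38 against 8.27 to 8.51 in wild type, with a log2 difference of -2.67 ± 1.10 (SE) that did not pass (adjusted p = 0.0598).

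Higher calls among the trypsins in the deficiency groups were those of iotaTry, etaTry and thetaTry. In no deficiency group were more than 2 of the 9 trypsins (22.2%) called higher, against 28.6% to 34.6% of all probe sets. The trypsins thus held no excess of higher calls. All probe sets also lay above wild type on this scale, by a median of 0.26 to 0.29. iotaTry, at 6.32, 7.17 and 6.48 in wild type, measured 7.60, 7.77 and 7.87 in Df(2L)ED4651/+ (log2 difference 1.09 ± 0.31, SE, adjusted p = 0.0118) and 6.75, 8.15 and 7.83 in Df(3L)4470/+ (0.92 ± 0.31, SE, adjusted p = 0.0288). The last group overlapped wild type through its replicate 1. etaTry rose by 0.65 ± 0.24 in Df(2L)J-H/+ (SE, adjusted p = 0.0428) and by 0.67 ± 0.24 in Df(2L)ED4651/+ (adjusted p = 0.031), and thetaTry by 0.83 ± 0.31 in Df(2L)J-H/+ (adjusted p = 0.0437). As deposited, the rises were smaller, and 4 of the 5 were not called: etaTry 0.43 (adjusted p = 0.193) and 0.44 (adjusted p = 0.168), thetaTry 0.61 (adjusted p = 0.182), and iotaTry in Df(3L)4470/+ 0.68 (adjusted p = 0.121). The rise of iotaTry in Df(2L)ED4651/+ held in the deposited values (0.85) and was lost only without wild type replicate 1 (0.92, adjusted p = 0.0505). With single arrays left out, adjusted p reached 0.18 for etaTry in Df(2L)J-H/+ (without its replicate 3), 0.0971 in Df(2L)ED4651/+ (without its replicate 3), 0.127 for thetaTry (without Df(2L)J-H/+ replicate 3) and 0.205 for iotaTry in Df(3L)4470/+ (without its replicate 2). These calls were lost in 5, 4, 6 and 4 of the 6 fits, respectively.

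Jon65Aii was the Jonah gene with the largest called differences from wild type. All were in groups with an altered copy number of chromosome 4, which also share the compound chromosome 4 stock in their cross. Jon65Aii is 1 of 4 measured genes of the Jon65A cluster on chromosome 3L. It measured 7.09, 6.85 and 6.47 in wild type, the lowest group mean of the 9, and 10.87, 11.09 and 10.86 in haplo 4th. For Df(2L)J-H/+ haplo 4th it measured 10.15, 11.43 and 11.36. These 6 arrays were each at least 3 log2 units above every wild type array, with log2 differences of 4.14 ± 0.73 (SE, adjusted p = 0.00223), or 17.6-fold, and 4.18 ± 0.73 (adjusted p = 0.00103), or 18.1-fold.

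In Dp(2;2)Cam3/+ triplo 4th Jon65Aii measured 8.03, 10.54 and 10.48 (log2 difference 2.88 ± 0.73, SE, adjusted p = 0.0393), and in pof-mutant triplo 4th 10.24, 10.28 and 9.0 (3.04 ± 0.73, SE, adjusted p = 0.045). Neither group overlapped wild type. Both calls were near the threshold: they were lost in 5 and 6 of the 6 fits with 1 array left out, with adjusted p up to 0.23 (without Dp(2;2)Cam3/+ triplo 4th replicate 2) and 0.189 (without wild type replicate 3), and the pof-mutant triplo 4th call was lost in 7 of 11 other settings, among them the values as deposited (3.02, adjusted p = 0.0507). Arrays labelled pof-mutant, with 2 copies of chromosome 4, spread from 7.54 to 11.10 and did not overlap wild type either. Their log2 difference of 2.53 was not called. Jon65Aii was above wild type on each array of Df(2L)ED4651/+ (7.53 to 8.85) and Df(3L)4470/+ (7.15 to 7.68) as well, whereas Df(2L)J-H/+ overlapped it. The other genes of the cluster moved less in haplo 4th: Jon65Aiii by 0.52 ± 0.39 (SE, adjusted p = 0.726), Jon65Aiv by 0.37 ± 0.42 (adjusted p = 0.88) and Jon65Ai by 0.39 ± 1.10 (adjusted p = 0.974).

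Ser6, on the X chromosome, split the 9 groups by cross. It measured 6.86, 6.43 and 6.91 in wild type, 6.30 to 7.16 in Df(2L)J-H/+, 6.11 to 6.68 in Df(2L)ED4651/+, 6.19 to 6.41 in Df(3L)4470/+ and 5.65 to 6.84 in the arrays labelled pof-mutant. It measured 9.15, 8.86 and 9.27 in haplo 4th, 8.65, 9.10 and 9.29 for Df(2L)J-H/+ haplo 4th, 8.97, 9.08 and 9.23 in Dp(2;2)Cam3/+ triplo 4th and 9.03, 7.38 and 7.75 in pof-mutant triplo 4th. The 12 arrays of the 4 groups with the compound chromosome 4 stock in their cross (7.38 to 9.29) all lay above the other 15 arrays (5.65 to 7.16). These groups have 1 or 3 copies of chromosome 4 and the others have 2. Log2 differences from wild type were 2.36 ± 0.33 in haplo 4th (SE, adjusted p = 0.000236), 2.28 ± 0.33 for Df(2L)J-H/+ haplo 4th (adjusted p = 0.000178) and 2.36 ± 0.33 in Dp(2;2)Cam3/+ triplo 4th (adjusted p = 0.000195), and these calls held in every setting. In pof-mutant triplo 4th the difference was 1.32 ± 0.33 (SE, adjusted p = 0.0642).

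Of the 18769 probe sets, 2 (0.0107%) separated these 12 arrays from the other 15 without overlap, a split looked up after the values of Ser6 had been seen. The second was that of CG1304, which is the next gene to Ser6 on the X chromosome in the gene table and is listed there with the older name SP46, as Ser6 is with SP47. CG1304 was at 5.34 to 8.45 in the 12 arrays and at 3.83 to 4.47 in the 15, and its Pearson r with Ser6 over 27 arrays was 0.944. The arrays share cross and strain within groups, so this r describes the pattern and carries no test. CG1304 differed from wild type by 4.20 in haplo 4th (adjusted p = 2.02e-08), 3.77 for Df(2L)J-H/+ haplo 4th (adjusted p = 9.73e-08), 3.46 in Dp(2;2)Cam3/+ triplo 4th (adjusted p = 3.71e-07) and 1.86 in pof-mutant triplo 4th (adjusted p = 0.00118). Whether probes of the paired genes detect each other's RNA was not tested. The next measured genes on either side, CG11227 (group means 3.92 to 4.40) and CG11666 (4.01 to 4.22), were at the level of CG1304 in the 15 low arrays, so that these probe sets say nothing of the neighbourhood.

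Ser12, on chromosome 2L, was either near the floor of the array or well above it. It measured 4.17, 4.18 and 4.37 in wild type, and 4.12 to 4.61 over all 18 arrays of wild type, Dp(2;2)Cam3/+ triplo 4th, Df(2L)J-H/+ with 1 or 2 copies of chromosome 4, and the groups labelled pof-mutant and pof-mutant triplo 4th. It measured 8.22, 7.54 and 8.39 in Df(2L)ED4651/+, whereas Df(3L)4470/+ gave 8.35, 7.83 and 8.27 and haplo 4th 8.73, 8.98 and 9.41. No array lay between 4.61 and 7.54. The log2 differences from wild type were 3.81 ± 0.19 (SE, adjusted p = 3.12e-11), 3.91 ± 0.19 (adjusted p = 1.86e-11) and 4.8 ± 0.19 (adjusted p = 6.19e-13), or 14-fold, 15-fold and 27.9-fold on this scale, which understates changes of dim probe sets. Of the 3 groups with an Oregon R parent 2 were high, and of the 2 groups with 1 copy of chromosome 4 haplo 4th was high.

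Carrying Df(2L)J-H in haplo 4th females thus went with a Ser12 level lower by 4.67 ± 0.19 on the log2 scale (Df(2L)J-H/+ haplo 4th relative to haplo 4th, SE, adjusted p = 1.07e-12). In females with 2 copies of chromosome 4 the difference was 0.15 ± 0.19 (SE, adjusted p = 0.51), with both groups near the floor, where a fall could not be seen. The difference between these differences was -4.83 ± 0.26 (SE, adjusted p = 5.43e-10 over all probe sets), a contrast added after the data had been seen, in which Ser12 was the 1 member called (0.741% of all probe sets called, 0.181% higher and 0.559% lower). The genes next to Ser12 in the gene table did not split the groups as Ser12 did. CG17234 had group means of 4.66 to 8.28 and was lowest in haplo 4th (4.66), whereas it was 6.36 in Df(3L)4470/+, 5.05 in Df(2L)ED4651/+ and 6.72 in wild type. Send1, an endopeptidase of the spermathecae, had group means of 10.28 to 11.81, and CG17239 of 8.65 to 10.31. The nearest on the other side, CG4267, was above wild type (8.11) in Df(2L)ED4651/+ (9.62), Df(3L)4470/+ (9.71) and haplo 4th (8.52). It was also higher in groups where Ser12 was near the floor, as in Df(2L)J-H/+ (9.35) and the arrays labelled pof-mutant (8.98). Over the array, 6 probe sets (0.032%), that of Ser12 included, separated the same 9 arrays from the other 18 in either direction. This split was taken from the values of Ser12 itself, so it is a description without a test. Among the others were those of Ciao1 (r with Ser12 over 27 arrays 0.897) and Argp (0.886), which lie on chromosomes 2R and 3R. With group means removed, r was 0.14 for Ciao1 and 0.37 for Argp.

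**Figure D3:**
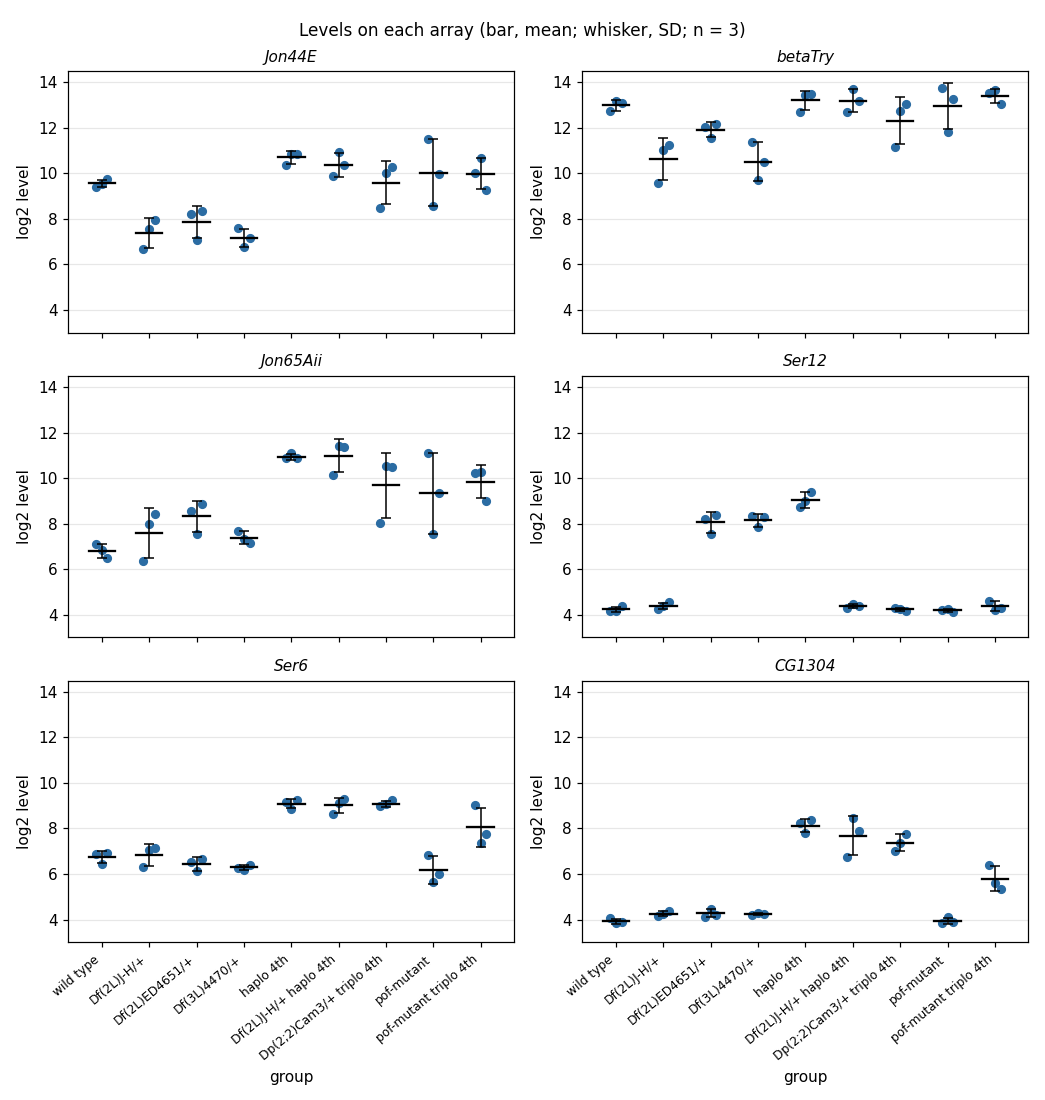
Log2 level of Jon44E, betaTry, Jon65Aii, Ser12, Ser6 and CG1304 on each array, by group (points, replicates 1 to 3 from left to right; bar, mean; whisker, SD; n = 3). Ser12 lies at 4.12 to 4.61 in 18 arrays and at 7.54 to 9.41 in 9, and Ser6 and CG1304 are both high in the 4 groups from crosses to the compound chromosome 4 stock.

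Ser8, on chromosome 2R, was dim throughout and was called higher in 1 comparison with wild type. It measured 5.23, 4.71 and 5.52 in wild type and 6.88, 6.86 and 6.03 for Df(2L)J-H/+ haplo 4th (log2 difference 1.44 ± 0.40, SE, adjusted p = 0.0269). The arrays did not overlap. The call was lost in the deposited values (1.30, adjusted p = 0.0587) and in 4 of 6 fits with 1 array left out, at most at 0.11 without wild type replicate 2. The haplo 4th arrays (6.03 to 6.71) and those labelled pof-mutant (5.79 to 7.04) also lay above wild type. Their log2 differences of 1.25 and 1.16 were not called. In pof-mutant triplo 4th Ser8 had its lowest mean (4.70 ± 0.138, SD, n = 3).

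In the 2 groups with 1 copy of chromosome 4, the calls against wild type were all rises. Haplo 4th had 4 members higher and 0 lower (2.79% of all probe sets called, 2% higher and 0.789% lower), namely Ser12, Jon65Aii, Ser6 and iotaTry. iotaTry measured 7.83, 8.15 and 8.07 there (log2 difference 1.36 ± 0.31, SE, adjusted p = 0.0181), with adjusted p up to 0.104 once wild type replicate 1 was left out and 4 of 6 such fits losing the call. Df(2L)J-H/+ haplo 4th had 5 higher and 0 lower (10.4% called, 7.83% higher and 2.55% lower): Jon65Aii, Ser6, iotaTry, Ser8 and etaTry. There iotaTry lay at 7.83, 8.33 and 8.32 (1.5 ± 0.31, SE, adjusted p = 0.00443) and etaTry at 7.92, 7.97 and 8.09 (1.15 ± 0.24, SE, adjusted p = 0.0044), each above the wild type arrays, and both calls held in every setting. The median difference of the 25 members was 0.65 in haplo 4th (0.03 over all probe sets) and 0.88 for Df(2L)J-H/+ haplo 4th (0.16 over all probe sets). Of the 25 differences, 20 and 21 were positive. Many members moved together from array to array, so these are not separate observations. Dp(2;2)Cam3/+ triplo 4th had 2 higher and 0 lower (2.13% called, 1.47% higher and 0.666% lower) and pof-mutant triplo 4th 1 higher (1.01% called, 0.448% higher and 0.565% lower). Against the wild type arrays, those labelled pof-mutant gave 0 calls in limma (2.01% called over the array, 0.847% higher and 1.16% lower), with 5 members at an unadjusted p under 0.05 and 5 called without the array labelled pof-mutant replicate 3. Without Dp(2;2)Cam3/+ triplo 4th replicate 1 that group had 4 calls, and without any other of its 6 arrays 1.

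Loss of 1 chromosome 4 could also be followed within Df(2L)J-H/+ females, where the crosses differ as well. Df(2L)J-H/+ haplo 4th had 8 members higher and 0 lower than Df(2L)J-H/+, against 3% of all probe sets called, 1.17% higher and 1.83% lower. Of the 25 differences, again not separate observations, 23 were positive, with a median of 1.56 (-0.09 over all probe sets). Jon44E went from 6.65, 7.53 and 7.96 to 9.86, 10.92 and 10.34 (log2 difference 3.00 ± 0.57, SE, adjusted p = 0.00473). Ser6 rose by 2.17 ± 0.33 (adjusted p = 0.000763), and these were the pair of calls that held in every setting.

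betaTry rose by 2.57 ± 0.53 (SE, adjusted p = 0.00811), Jon74E by 2.19 ± 0.49 (adjusted p = 0.015), Jon65Aii by 3.39 ± 0.73 (adjusted p = 0.0108), Ser8 by 1.76 ± 0.40 (adjusted p = 0.017), Jon65Aiii by 1.56 ± 0.39 (adjusted p = 0.0285) and Jon65Aiv by 1.63 ± 0.42 (adjusted p = 0.037). For each of the 6 the 3 arrays lay above those of Df(2L)J-H/+. The array Df(2L)J-H/+ replicate 1 was the lowest of its group for most members, and without it the adjusted p was 0.0764 for betaTry (2.04), 0.12 for Jon74E (1.74), 0.0949 for Jon65Aii (2.77), 0.107 for Ser8 (1.58), 0.152 for Jon65Aiii (1.38) and 0.165 for Jon65Aiv (1.49). The count of calls without it was 2. Leaving out Df(2L)J-H/+ haplo 4th replicate 2 also gave a count of 2.

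thetaTry stood apart from the other trypsins in its highest group, which was also the highest for the Jonah genes Jon65Aiii, Jon65Aiv, Jon66Ci and Jon66Cii. Its highest group mean was that of Dp(2;2)Cam3/+ triplo 4th, with arrays at 10.75, 11.11 and 10.99, and its values in haplo 4th were 9.34, 9.62 and 9.81. This was the 1 member called higher in the former (log2 difference 1.36 ± 0.31, SE, adjusted p = 0.0238) and Ser12 the 1 called lower (-4.81 ± 0.19, SE, adjusted p = 6.02e-13), with 1.36% of all probe sets called, 0.719% higher and 0.645% lower. The thetaTry call was lost in 4 of 6 fits with 1 array left out, with adjusted p up to 0.149 without haplo 4th replicate 1. Between Df(2L)J-H/+ haplo 4th and haplo 4th, Ser12 was the 1 member called (0.517% called, 0.256% higher and 0.261% lower), and between pof-mutant triplo 4th and pof-mutant 0 members were called (limma, 0.0107% called), with 4 at an unadjusted p under 0.05.

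Correlations over the 27 arrays described which members moved together. The arrays of a group share genotype and cross, so the coefficients are descriptions without a test. Jonah genes ran together, with a median Pearson r of 0.75 over 78 pairs (0.24 to 0.97), and 0.87 to 0.97 among Jon25Bi, Jon25Bii and Jon25Biii, which are neighbours on chromosome 2L. alphaTry, betaTry and epsilonTry followed the Jonah genes (median r 0.78 over 39 pairs) and each other (0.77 to 0.83). Of the other trypsins of the same cluster, lambdaTry, kappaTry, zetaTry, etaTry and iotaTry correlated among themselves (median r 0.76 over 10 pairs). They correlated little with the Jonah genes (median 0.11 over 65 pairs) or with alphaTry, betaTry and epsilonTry (median 0.071 over 15 pairs). These sets, with thetaTry apart, were not given by the naming rule and were drawn up with these data known. High r within and low r between them is thus no separate evidence for a split. With group means removed, these medians were 0.79 for Jonah pairs, 0.86 for Jonah genes with the 3 trypsins, 0.56 among the 5, 0.23 between them and the Jonah genes, and 0.30 between the 3 and the 5.

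This grouping of the trypsins followed gene order only in part. In the gene table the order along chromosome 2R is lambdaTry, kappaTry, zetaTry, etaTry, thetaTry, alphaTry, epsilonTry, betaTry, gammaTry, deltaTry and iotaTry, with CG30031 and CG30025 between gammaTry and deltaTry and CG13202 before iotaTry. The 3 that ran with the Jonah genes are consecutive, and iotaTry, at the far end, ran with lambdaTry to etaTry. The 5 did not move as one in single groups: in Df(2L)J-H/+, where betaTry fell by 2.38 on the log2 scale, etaTry was called higher (0.65), and iotaTry (0.69), kappaTry (0.61), lambdaTry (0.10) and zetaTry (-0.61) did not pass. thetaTry had a median r of 0.11 with the other 24 members, and 0.58 with group means removed. Near-identical copies such as alphaTry, gammaTry and deltaTry are closely related in sequence, and how far their RNAs share probes was not tested.

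**Figure D4:**
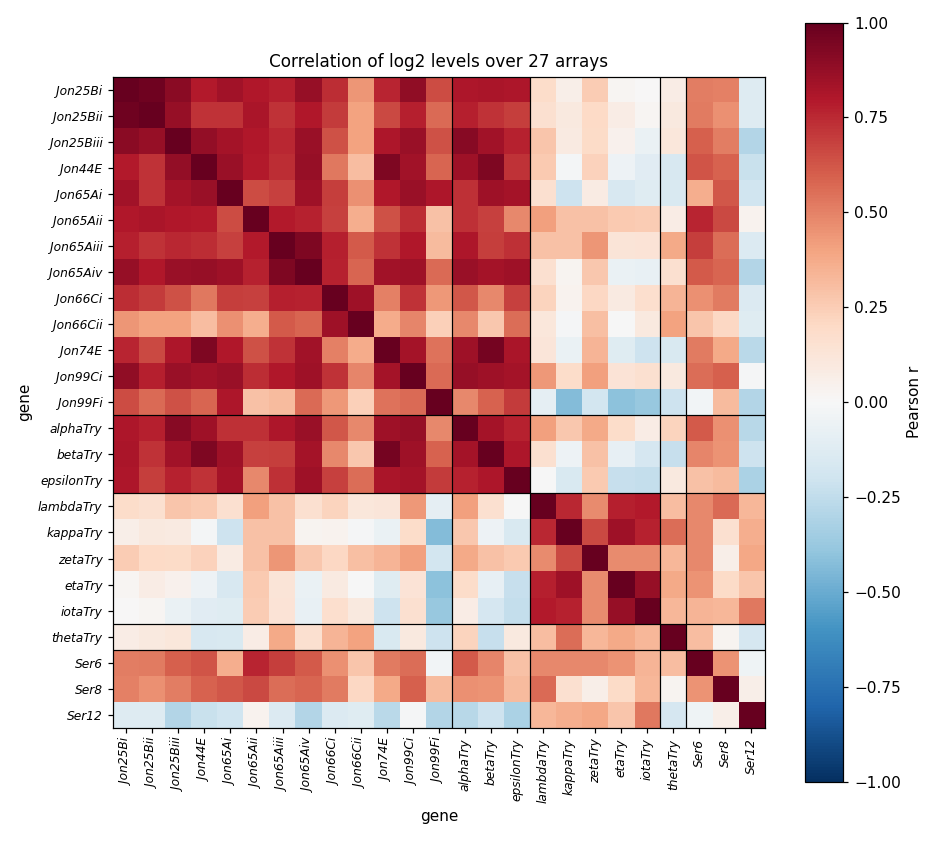
Pearson r between the log2 levels of each pair of the 25 genes over 27 arrays (red, positive; blue, negative), with lines between the Jonah genes, alphaTry to epsilonTry, lambdaTry to iotaTry, thetaTry and the Ser genes. The Jonah block extends over alphaTry, betaTry and epsilonTry (median r 0.78), and lambdaTry, kappaTry, zetaTry, etaTry and iotaTry form a second block (median r 0.76). The trypsin sets were drawn up with these data known.

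Genes outside the family with the most similar profile were looked up by Pearson r over 27 arrays with the median profile of the 22 members above 6, as a description. The 10 highest were Bace (0.939), an aspartic protease of the gut, PGRP-SC2 (0.862), an amidase that cuts peptidoglycan, Ag5r (0.826), the protease gene Phae1 (0.824), the protease inhibitor gene Kaz-m1 (0.811), the gut lipase gene mag (0.778), the protease gene yip7 (0.774), the sterol binding protein gene Npc2f (0.762), the desaturase gene Fad2 (0.757) and Phae2 (0.735). With group means removed, r lay between 0.54 (Phae2) and 0.90 (Bace).

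Other digestive genes and cell type markers were read from lists. Of 17 measured genes among 23 other digestive enzymes, Df(2L)J-H/+ had 1 higher and 1 lower, Df(2L)ED4651/+ 2 higher, Df(3L)4470/+ 1 higher and 3 lower, and haplo 4th and Df(2L)J-H/+ haplo 4th 4 higher each. In these 3 deficiency groups, in the same order, 28.6%, 34.6% and 31.6% of all probe sets were called higher and 5.03%, 6.08% and 4.31% lower. In haplo 4th 2% were called higher, and for Df(2L)J-H/+ haplo 4th 7.83%. Mal-B1, a maltase gene at 5.44 in wild type, was called higher in 6 of 8 groups, by 6.18 in Df(3L)4470/+ (adjusted p = 8.35e-10), 5.60 in Df(2L)ED4651/+ (2.8e-09), 4.85 in Df(2L)J-H/+ (6.3e-08), 5.03 in haplo 4th (2.07e-08), 4.65 in Dp(2;2)Cam3/+ triplo 4th (1.07e-07) and 2.22 for Df(2L)J-H/+ haplo 4th (0.000591). It differed by 0.02 and -0.11 in the arrays labelled pof-mutant and pof-mutant triplo 4th. The gut lysozyme gene LysP was lower by the limma fit in Df(2L)J-H/+ (-2.05, adjusted p = 0.00129), Df(3L)4470/+ (-2.56, adjusted p = 0.000218) and the arrays labelled pof-mutant (-1.83, adjusted p = 0.014), where 0 members were called. mag (-1.72, adjusted p = 0.043) and yip7 (-1.15, adjusted p = 0.0402) were lower in Df(3L)4470/+, where betaTry, Jon44E and Jon74E were low as well. Among gut lining proteins and amidases, Muc68D, a mucin gene, was lower in 5 groups: the log2 difference was -3.11 in the arrays labelled pof-mutant (adjusted p = 0.000114), -2.67 in pof-mutant triplo 4th (0.000771), -2.46 in Df(2L)J-H/+ (0.000535), -1.79 in Df(3L)4470/+ (0.00449) and -1.12 in Df(2L)ED4651/+ (0.0388).

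On the centred scale, the 10 measured midgut markers of 14 listed were not lower as a group where the proteases were. Their median log2 difference from wild type was 0.31 for Df(2L)J-H/+, near the centring shift of all probe sets (0.26). For Df(3L)4470/+ the marker median was also 0.31, against 0.27 for all probe sets. Over probe sets above 6 these shifts were 0.02 and 0.01. Whether the number of gut cells differed was not tested. The median level of the markers ran from 6.92 to 7.47 over the arrays of Df(2L)J-H/+, from 6.97 to 7.12 in Df(3L)4470/+ and from 6.27 to 7.04 in wild type. In Df(2L)J-H/+ 3 were called higher and 1 lower, the last being cad (-1.57, adjusted p = 0.0118), which encodes a homeodomain factor of the posterior gut and of the germline. Of all probe sets, 28.6% were called higher in that group and 5.03% lower. The enterocyte marker mex1 had a mean of 8.48 in Df(2L)J-H/+, 8.64 in Df(3L)4470/+ and 8.56 in wild type. It was higher than wild type by 1.43 for Df(2L)J-H/+ haplo 4th (adjusted p = 0.0169). Ovary and eggshell medians were 5.49 to 6.4 in the 9 deficiency arrays and 5.67, 7.20 and 10.81 in wild type, with 1, 2 and 3 of 12 genes called lower in Df(3L)4470/+, Df(2L)ED4651/+ and Df(2L)J-H/+, and flight muscle medians were 13.90 to 14.25 against 12.65 to 13.04, with 0 of 4 called. Larval fat body medians of 3 genes ran from 10.08 to 13.34 in wild type and from 12.93 to 13.66 in the deficiency groups. Medians of 7 male genes stayed between 3.83 and 4.66 on all arrays. The part of these shifts in the protease differences was not tested.

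Genes next to the members showed small median differences. Around each member, the 20 nearest genes with a wild type mean above 6 had a median difference from wild type between -0.39 (around Jon99Ci in Df(2L)J-H/+) and 0.42 (around Jon99Ci in the arrays labelled pof-mutant). Around Jon44E these medians were 0.08, 0.20 and 0.20 in the 3 deficiency groups, where Jon44E itself fell by 2.18, 1.69 and 2.39 on the log2 scale. Around Jon65Aii they were 0.08 in haplo 4th and 0.03 for Df(2L)J-H/+ haplo 4th, and around Ser12 they were 0.05 in haplo 4th, 0.09 in Df(3L)4470/+ and -0.05 in Df(2L)ED4651/+. Jon66Ci and Jon66Cii, dim at 5.43 to 7.46 and 4.89 to 6.62, were called in no comparison, nor were Jon25Bi, Jon25Bii, Jon25Biii, Jon65Ai, Jon99Ci, Jon99Fi, kappaTry, lambdaTry and zetaTry.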

How the data were processed

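The authors deposited 1 log2 value per probe set and array, made by robust multi-array analysis (RMA, named in the submitters' processing notes: background correction, normalization and summary over probes). Whether all arrays were normalized together is not given in the sources used here. The number of arrays limits the precision. The p-values rest on 1 estimate per probe set of the spread between pooled samples within groups, shared by all 9 groups. Groups differed in spread: for Jon44E the SD was 0.161 in wild type and 1.46 in the arrays labelled pof-mutant (n = 3 each).

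A total of 183 control probe sets were left out and 18769 kept without a filter on level. A probe set's gene came from the platform annotation, with symbols updated through a gene table (Release 6 plus ISO1 MT) that also gave chromosome arms and gene order. Arrays were centred on probe sets with a wild type mean above 6, after the study, which added a constant to the mutant arrays and removed the dimmer genes. Here the wild type arrays were centred too and all probe sets were kept. limma 3.58.1 in R 4.3.3 fitted 1 mean per group over 27 arrays, with moderated variances and Benjamini-Hochberg adjustment over all probe sets. A call is an adjusted p under 0.05. The script was tested on simulated data. The members and lists were chosen with earlier results of these data known. Named genes were the members (with up to 6 called members per comparison and direction in full), the 10 symbols other than CG or CR numbers whose profile had the highest r with the median member profile, and up to 3 called genes per list and comparison. Alternatives were the values as deposited, median centring, quantile normalization, filters at 6, no shared probe sets, trend and robust variances, array weights (limma's gene-by-gene algorithm, since the default did not converge), only the 2 groups compared, a replicate block, each array left out and, chosen after seeing the data, both low arrays left out (Dp(2;2)Cam3/+ triplo 4th replicate 1 and pof-mutant replicate 2).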

Additional observations from a re-analysis of the deposited data

Results flagged for a closer look

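Ser12 was marked because its difference between groups with and without Df(2L)J-H was not the same at 1 and at 2 copies of chromosome 4. The difference was 0.15 on the log2 scale against wild type with 2 copies and -4.67 against haplo 4th with 1 copy. The contrast of both was -4.83 (limma adjusted p = 5.43e-10) and was added after the data had been seen. Ser12 was near the floor in wild type (4.24), Df(2L)J-H/+ (4.39) and Df(2L)J-H/+ haplo 4th (4.37), and at 9.04 in haplo 4th. With 2 copies both groups were thus near the floor, where a fall could not have been seen. Ser12 was lower in 3 of 3 Df(2L)J-H/+ haplo 4th arrays than in any haplo 4th array. The parental crosses differ between these groups, and crosses and genotype cannot be told apart.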

How the results depend on the processing

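Of 41 calls of single members, 0 changed direction under any alternative and 21 were kept with each array left out and in every other setting. As deposited, 4, 5 and 4 of the 25 member differences changed sign in the deficiency groups, among them none of the calls, and the member median of Df(2L)ED4651/+ went from 0.15 to -0.09. The share of all probe sets called was computed for the main fit and the deposited values only. For every other setting, here and above, the count of members thus cannot be set against the array. With array weights (0.0946 to 10.6), the calls numbered 14 in Df(2L)J-H/+, 11 in Df(2L)ED4651/+, 14 in Df(3L)4470/+, 11 in haplo 4th, 17 for Df(2L)J-H/+ haplo 4th females, 15 in Dp(2;2)Cam3/+ triplo 4th, 19 in pof-mutant and 4 in pof-mutant triplo 4th against wild type, 22 for Df(2L)J-H/+ haplo 4th against Df(2L)J-H/+, 6 relative to haplo 4th, 9 for Dp(2;2)Cam3/+ triplo 4th relative to haplo 4th, 8 for pof-mutant triplo 4th against pof-mutant and 11 for the contrast of both Df(2L)J-H differences. With both low arrays left out, chosen after seeing the data, these counts were 10, 8, 10, 9 (Df(2L)J-H/+ haplo 4th females), 8 (Dp(2;2)Cam3/+ triplo 4th), 2 (pof-mutant) and 3 (pof-mutant triplo 4th) against wild type, 2 for Df(2L)J-H/+ haplo 4th relative to haplo 4th and 3 for the contrast. With only the 2 groups compared they were 13, 14 and 13 in the deficiency groups, 10 in haplo 4th, 12 for Df(2L)J-H/+ haplo 4th, 14 for the latter against Df(2L)J-H/+, and 0 in pof-mutant triplo 4th. With a wild type mean above 6 they were 3 in each deficiency group, and with a mean over all arrays above 6, 3 in Df(2L)J-H/+. Both filters removed Ser12 and left 0 for Df(2L)J-H/+ haplo 4th relative to haplo 4th, 0 for the contrast and 1 for Dp(2;2)Cam3/+ triplo 4th relative to haplo 4th. The last was also 1 with median centring and quantile normalization. The single call in pof-mutant triplo 4th became 0 in these 2 settings, as deposited, with trend and robust variances, without shared probe sets and with the replicate block. The cause was not tested.

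On average, replicate numbers did not pair the samples. Deviations from group means of arrays with the same number had a mean r of -0.022 over 108 pairs (-0.79 to 0.84). Pairs with different numbers had a mean r of 0.013 over 216 pairs (-0.91 to 0.85). Whether particular groups were paired by number was not tested. With the replicate block Dp(2;2)Cam3/+ triplo 4th had 1 call, pof-mutant triplo 4th 0, and the 9 groups 17. With each array left out, the counts ran from 15 to 23 for the 9 groups, 3 to 5 in Df(2L)J-H/+, 2 to 4 in Df(2L)ED4651/+, 4 to 6 in Df(3L)4470/+, 3 to 4 in haplo 4th, 4 to 5 for Df(2L)J-H/+ haplo 4th females, 1 to 4 in Dp(2;2)Cam3/+ triplo 4th, 0 to 5 in pof-mutant, 0 to 1 in pof-mutant triplo 4th, 2 to 6 for Df(2L)J-H/+ haplo 4th against Df(2L)J-H/+, 1 to 1 relative to haplo 4th, 1 to 2 for Dp(2;2)Cam3/+ triplo 4th relative to haplo 4th, 0 to 1 for pof-mutant triplo 4th against pof-mutant and 1 to 1 for the contrast. With 3 arrays a group, differences near the SD within groups were not detectable.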
